A study of Mus musculus with 6 samples.

Results

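The 10 genes described here are transcription factors, regulators and enzymes of the integrated stress response that are known or commonly used as readouts of the transcription factor ATF4: *Atf4*, *Atf5*, *Ddit3*, *Trib3*, *Chac1*, *Eif4ebp1*, *Sesn2*, *Asns*, *Psat1* and *Phgdh*. They were taken by gene name from a table of 22027 genes, each name matched 1 row, and all 10 were among the 12322 genes that passed the filter on low counts. RNA-seq was performed on poly(A)-selected RNA of GAS (gastrocnemius) muscle from 3 WT and 3 mKD mice, 1 library per mouse. All were female mice aged 14 weeks on regular chow that carried floxed *Tet3* alleles, and the mKD mice also carried the Cre recombinase of HSA-Cre79, driven by the human α skeletal muscle actin promoter, so that *Tet3* is targeted in muscle fibres while other cell types of the tissue keep it. The WT littermates had the floxed alleles without Cre, so neither group was free of the modified locus. A time of 48 h stands in the labels without further detail.

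In the integrated stress response, the kinases PERK, GCN2, PKR and HRI phosphorylate the translation initiation factor eIF2 when the endoplasmic reticulum, amino acid supply, viral RNA or haem and mitochondria signal stress. General translation then falls, while the *Atf4* mRNA is translated more, and ATF4 protein activates genes for amino acid synthesis and transport, for stress hormones and, when stress persists, for cell death. In skeletal muscle this programme is known from mitochondrial defects and from amino acid shortage. Because ATF4 is controlled largely at translation, an mRNA level of *Atf4* is not a level of its protein.

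ATF4 binds with C/EBP partners to a composite element whose core can be written TGATGNAA. RefSeq promoters on GRCm38.p6, 250 bases before to 50 bases after each start site, were found for 9 of the 10 genes, all but *Eif4ebp1*, and 3 of these 9 held the core on either strand. The core was present in 3.97% of the 32851 promoters of the same length, a share counted per promoter and not per gene. The matches are shown because they hold the letters that ATF4 is known to bind, with the letters of the core in capitals and the strand of the gene written 5′ to 3′. In *Chac1* the match begins 193 bases before the start site and reads as the core on the reverse strand (60 bases, chr2:119351023-119351082, plus strand). In *Asns* it begins 23 bases before the start site, in the orientation of the gene (49 bases, chr6:7693210-7693258, minus strand). In *Trib3* it begins 15 bases into the transcript and again reads as the core on the reverse strand (30 bases, chr2:152344028-152344057, minus strand).
*Chac1*: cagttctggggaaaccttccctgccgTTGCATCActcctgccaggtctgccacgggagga
*Asns*: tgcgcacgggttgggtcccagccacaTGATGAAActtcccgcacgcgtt
*Trib3*: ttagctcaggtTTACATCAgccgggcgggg
The palindrome TGACGTCA, the cyclic AMP response element, was searched on both strands as well and was found in none of the promoters of the 9 genes, against 1.79% of all promoters. These matches describe letters in the sequence, and binding was not measured.

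Of the 10 genes, 4 were higher in mKD muscle at the cut-off of 1.2-fold with an unadjusted p under 0.05 (limma), and none was lower. They were *Atf4*, *Chac1*, *Eif4ebp1* and *Psat1*. Over all genes tested, 8.31% were higher and 9.51% lower at the same cut-off. The log2 fold change was positive in 9 of the 10 genes, with a median of 0.60, against a median of 0.0096 over all genes, of which 51.1% were positive. With Benjamini-Hochberg adjustment over all genes, none of the 10 reached an adjusted p under 0.05 in limma or edgeR, where each tool called 2 of 12322 genes (0.0162%). An unadjusted p under 0.05 was found in 4 of the 10 (18.1% of all genes), and DESeq2 on the recovered reads called 3, *Atf4*, *Eif4ebp1* and *Psat1* (4.34% of all genes). WT and mKD values were fully separate in *Atf4*, *Eif4ebp1* and *Psat1*, each higher in mKD, which was so for 12.1% of all genes tested.

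**Figure D1:**
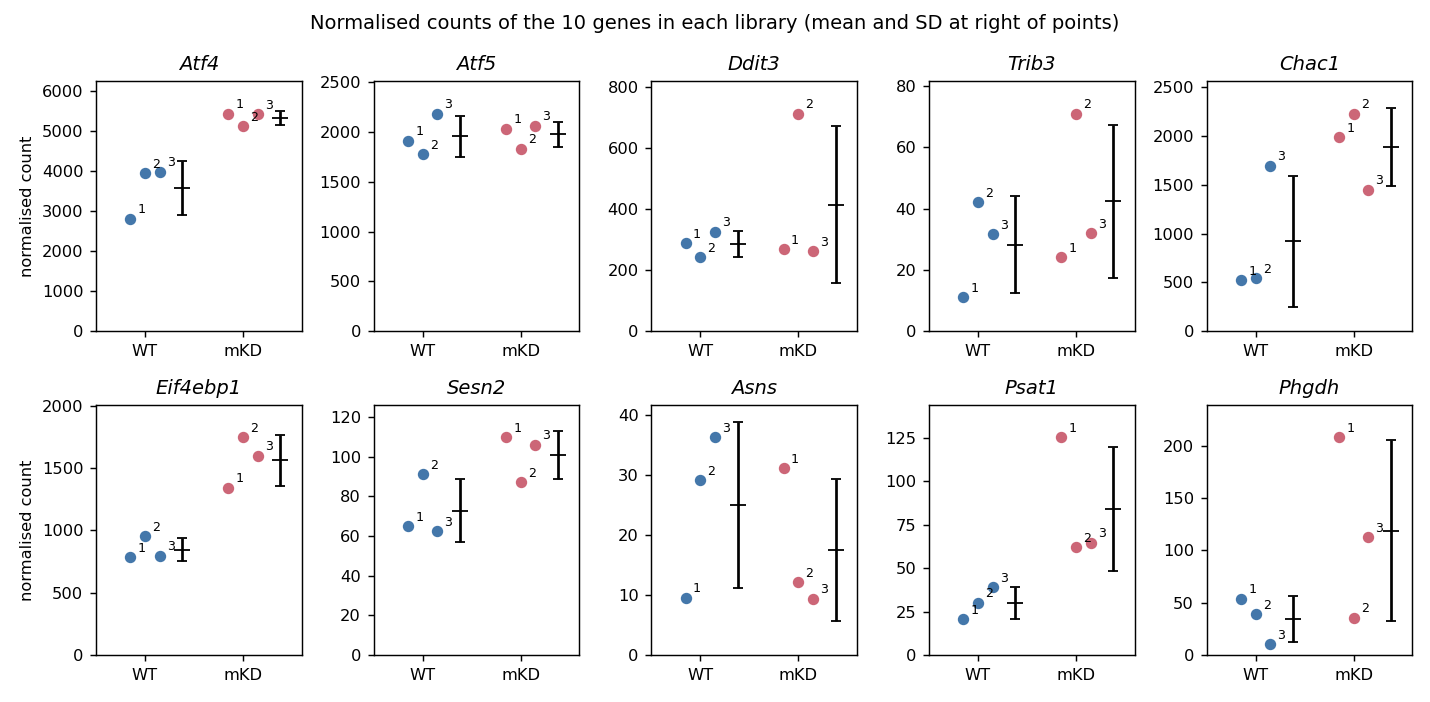
Normalised counts (vertical axis, from 0) of the 10 genes in the 3 WT libraries (blue) and the 3 mKD libraries (red), with the library number beside each point and the mean and SD at the right of each group. In *Atf4*, *Eif4ebp1* and *Psat1* each mKD point lies above each WT point, in *Ddit3* and *Trib3* mKD library 2 stands above the rest, and in *Asns* and *Atf5* the groups overlap.

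*Tet3*, the targeted gene, had normalised counts of 594, 536 and 708 in WT and 425, 318 and 472 in mKD, lower in each mKD library than in any WT library. The libraries held 16219227 to 32148270 reads, and the shallowest was WT library 1. All 12 muscle fibre markers were detected in each library, with a summed normalised count of 4544356 to 5512611 in WT and 4639796 to 5403563 in mKD. The 11 markers of Schwann cells and nerve had a summed normalised count of 1519 to 1745 in WT, but 22728, 1247 and 6247 in mKD libraries 1, 2 and 3. mKD libraries 1 and 3 thus stood apart from the other 4 libraries. Results for the 10 genes are also given without them where this changes a call. Calls in several of the other gene lists below changed without them as well, and not each such change is given. Such a fit keeps 1 mKD library and takes its variation from the WT mice.

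*Atf4* encodes the factor that drives the programme (GRCm38, chromosome 15, 80255184 to 80257541). Expression in normalised counts was 2815, 3953 and 3990 in WT libraries 1, 2 and 3 and 5439, 5120 and 5429 in mKD libraries 1, 2 and 3. Each mKD library was above each WT library, and the mKD libraries lay close together, while WT library 1 was the lowest. Mean and SD over 3 mice were 3586 ± 668 for WT and 5329 ± 181 for mKD. The fold change on the scale of log2(normalised count + 1) was 1.504 (95% interval 1.18 to 1.91), or 0.59 in log2 (standard error 0.15, unadjusted p = 0.0045, adjusted p = 0.15 from limma, 0.025 to 0.54 over all settings). An exact permutation test with both tails over the 6 libraries gave p = 0.10, which is the smallest p that 3 mice against 3 allow. In log2, the fold change was 0.53 without mKD libraries 1 and 3 (limma, unadjusted p = 0.073), so the call ended there.

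*Atf5*, on chromosome 7 from 44812256 to 44816658, encodes a related bZIP factor that is likewise translated more under stress and is known in the mitochondrial stress response. Normalised counts were 1915, 1780 and 2187 in WT and 2035, 1836 and 2067 in mKD. The groups overlapped fully. Mean and SD over 3 mice were 1960 ± 207 for WT and 1979 ± 125 for mKD, with a log2 fold change of 0.017 (95% interval -0.25 to 0.29, limma). *Atf5* was the gene of the 10 with the narrowest interval, and that interval holds changes of up to 1.22-fold in the upward direction. Annotated *Nup62* overlaps *Atf5* on the opposite strand, with 145 to 836 normalised counts, and whether the counting used strand is not given in the sources used here.

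*Ddit3* encodes CHOP, a factor that ATF4 induces and that is linked to cell death under lasting stress. It lies on chromosome 10 from 127290774 to 127296288. The libraries held normalised counts of 288, 242 and 325 in WT and 268, 712 and 263 in mKD. Only mKD library 2 was above the WT range, and the other mKD libraries lay within it. The log2 fold change was 0.38 (standard error 0.37, unadjusted p = 0.33, adjusted p = 0.61 from limma). It was -0.093 without mKD library 2 and 1.33 with that library as the only mKD library (limma, unadjusted p = 0.0016, adjusted p = 0.38). *Mars*, which overlaps *Ddit3* on the opposite strand, had 1660 to 2412 normalised counts. Another annotated protein-coding entry, also named *Ddit3*, overlaps it on the same strand and has no values here. Reads shared with that entry cannot be assigned.

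*Trib3*, on chromosome 2 from 152337422 to 152344032, encodes a pseudokinase that CHOP and ATF4 induce and that binds AKT and ATF4. Normalised counts stood at 11.1, 42.1 and 31.6 in WT and 24.2, 71.0 and 31.9 in mKD. mKD library 2 was again the highest, and WT library 1 the lowest with 7 reads. For these 7 reads the exact Poisson 95% interval of the normalised count was 4.46 to 22.8 (counting error only, with reads taken as independent). In log2, the fold change was 0.60 (standard error 0.60, unadjusted p = 0.34, adjusted p = 0.62 from limma), 0.16 without mKD library 2 and 0.060 without WT library 1. *Ddit3* and *Trib3* thus had their highest value in the same library, and neither passed the cut-off.

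*Chac1* encodes an enzyme that degrades glutathione and is a target of ATF4, and lies on chromosome 2 from 119351229 to 119354381. Normalised counts were 521, 541 and 1696 in WT and 1988, 2228 and 1451 in mKD. WT libraries 1 and 2 were low, WT library 3 reached the mKD range, and mKD library 3 lay below WT library 3. Mean and SD over 3 mice were 919 ± 673 for WT and 1889 ± 398 for mKD, a fold change of 2.38 (95% interval 1.19 to 4.75) or 1.25 in log2 (standard error 0.43, unadjusted p = 0.021, adjusted p = 0.20 from limma, 0.12 to 0.53 over all settings). The call was lost without WT library 1 (log2 fold change 0.96, unadjusted p = 0.080, limma), without WT library 2 (0.98, unadjusted p = 0.077, limma), without mKD library 2 (1.12, unadjusted p = 0.0575, limma) and without mKD libraries 1 and 3 (1.51, unadjusted p = 0.062, limma). On recovered reads neither DESeq2 (1.04, unadjusted p = 0.088) nor edgeR (1.04, unadjusted p = 0.0503) took it past the cut-off. Without WT library 3 the log2 fold change was 1.81.

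*Eif4ebp1* had the smallest p of the 10. It encodes 4E-BP1, a repressor of cap-dependent translation that mTORC1 inactivates by phosphorylation, and lies on chromosome 8 from 27260329 to 27276674. Normalised counts stood at 786, 952 and 795 in WT and 1341, 1746 and 1599 in mKD. The groups were well separated, and the lowest mKD library was above the highest WT library. Mean and SD over 3 mice were 844 ± 93.5 for WT and 1562 ± 205 for mKD. The fold change was 1.85 (95% interval 1.47 to 2.31), or 0.88 in log2 (standard error 0.14, unadjusted p = 0.00025, adjusted p = 0.091 from limma, 4.9e-05 to 0.38 over all settings). The lower end of the adjusted p came from DESeq2. With 1 library left out in turn the log2 fold change was 0.80 to 0.99, and it was 1.05 without mKD libraries 1 and 3. *Eif4ebp1* was past the 1.2-fold cut-off under each of the 17 alternatives tried.

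*Sesn2* encodes sestrin 2, a stress-induced inhibitor of mTORC1, and lies on chromosome 4 from 132492032 to 132510501. Normalised counts were 64.9, 91.3 and 62.3 in WT and 109.8, 87.2 and 106.0 in mKD. mKD libraries 1 and 3 were above all WT libraries, and mKD library 2 was just below WT library 2. The log2 fold change was 0.48 (95% interval -0.069 to 1.03, unadjusted p = 0.078, adjusted p = 0.33 from limma), and it was past the cut-off without WT library 2 (0.65, unadjusted p = 0.034, limma). Without mKD libraries 1 and 3 it was 0.28.

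**Figure D2:**
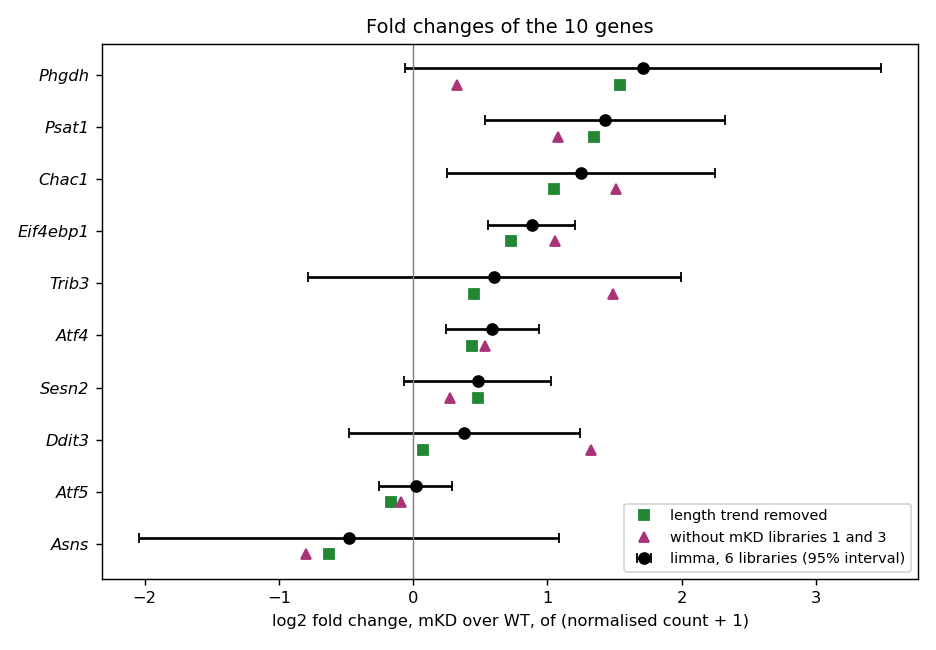
Log2 fold changes, mKD over WT, of the 10 genes (horizontal axis, on the scale of log2(normalised count + 1)). Black points with bars give the limma estimate over 6 libraries with its 95% interval, green squares the estimate corrected for transcript length, and purple triangles the estimate without mKD libraries 1 and 3. The intervals of *Psat1*, *Chac1*, *Eif4ebp1* and *Atf4* lie above 0, and the triangle of *Phgdh* falls from 1.71 to 0.33.

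Of the 3 enzymes of amino acid synthesis, *Psat1* passed the cut-off. *Asns* encodes asparagine synthetase, a classical target of ATF4, and lies on chromosome 6 from 7675169 to 7693254. It was low in all libraries, with normalised counts of 9.504, 29.1 and 36.3 in WT and 31.1, 12.1 and 9.38 in mKD, from 6 to 39 reads. High and low libraries occurred in both genotypes. In log2, the fold change was -0.48 (95% interval -2.04 to 1.09, unadjusted p = 0.50, adjusted p = 0.74 from limma), so the interval holds both a lower and a higher level in mKD. For the 6 reads of WT library 1 the exact Poisson 95% interval, with reads taken as independent, was 3.49 to 20.7 normalised counts.

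*Psat1*, on chromosome 19 from 15904678 to 15947337, encodes phosphoserine aminotransferase, the step of serine synthesis after PHGDH. Normalised counts were 20.6, 30.1 and 39.0 in WT and 125.4, 62.1 and 64.7 in mKD. Each mKD library was above each WT library, and mKD library 1 was the highest. Mean and SD over 3 mice were 29.9 ± 9.23 for WT and 84.1 ± 35.8 for mKD. The fold change was 2.69 (95% interval 1.45 to 4.995), or 1.43 in log2 (standard error 0.38, unadjusted p = 0.0062, adjusted p = 0.16 from limma, 0.038 to 0.58 over all settings). It was 1.10 without mKD library 1 (limma, unadjusted p = 0.025) and 1.08 without mKD libraries 1 and 3 (limma, unadjusted p = 0.10), where the call ended.

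*Phgdh*, on chromosome 3 from 98313170 to 98339990, encodes phosphoglycerate dehydrogenase, the entry step of serine synthesis. Normalised counts stood at 53.9, 39.1 and 10.2 in WT and 208.4, 35.5 and 112.6 in mKD. mKD libraries 1 and 3 were above all others, mKD library 2 lay within the WT range, and WT library 3 was the lowest. Mean and SD over 3 mice were 34.4 ± 22.2 for WT and 118.8 ± 86.6 for mKD. The log2 fold change of 1.71 was the largest of the 10 in size, but the spread was large as well (standard error 0.77, 95% interval -0.063 to 3.49, unadjusted p = 0.057, adjusted p = 0.29 from limma). It was past the cut-off in DESeq2 (1.80, unadjusted p = 0.0077) and edgeR (1.84, unadjusted p = 0.038), and without WT library 1 (2.17, limma) or mKD library 2 (2.40, limma). It was 0.33 without mKD libraries 1 and 3, 1.02 without WT library 3 and 1.14 without mKD library 1. A processed pseudogene, *Phgdh-ps1*, is annotated, and reads shared with it cannot be assigned here.

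Markers of adipocytes and nerve were also high in mKD libraries 1 and 3, those where *Phgdh* was highest. *Adipoq*, which encodes adiponectin, a hormone made by adipocytes, had 247 and 148 normalised counts in WT libraries 1 and 2, was listed at 0 in WT library 3, and had 718, 155 and 495 in mKD. From high to low, *Adipoq* ran mKD 1, mKD 3, WT 1, mKD 2, WT 2 and WT 3, and *Phgdh* ran mKD 1, mKD 3, WT 1, WT 2, mKD 2 and WT 3. The adipocyte hormone *Retn* had 30.1, 34.1 and 0 in WT and 236, 42.8 and 183 in mKD, and *Cfd*, which encodes adipsin, had 706, 568 and 13.9 in WT and 3771, 771 and 2822 in mKD. In *Retn* and *Cfd*, mKD library 2 was above all WT libraries, unlike in *Phgdh*. The whole list of 8 adipocyte markers had a summed normalised count of 121243 to 139864 in WT and 112639 to 151664 in mKD, most of it *Car3*, which muscle also expresses. *Adipoq*, *Plin1*, *Cidec*, *Lep* and *Retn* were listed at 0 in WT library 3. Of the 8 markers, 2 were higher and none lower at the cut-off, and 3 of the 11 nerve markers were higher and none lower. The shares over all genes tested were 8.31% higher and 9.51% lower. *S100b*, a marker of Schwann cells, had 14.3, 24.1 and 24.2 in WT and 498, 33.9 and 148 in mKD. The 11 nerve markers together lay below the WT mean in mKD library 2 (mean log2 difference -0.37), unlike *S100b*. The summed level of endothelial markers was lower in each of the 3 mKD libraries than in any WT library. *Atf4*, *Eif4ebp1* and *Psat1* were fully separated by genotype as well, each higher in mKD. Such separation, in either direction, was found in 24.8% of all genes tested. The 8 endothelial genes had a summed normalised count of 9171 to 10451 in WT. In mKD libraries 1, 2 and 3 it was 5481, 7256 and 6096, with 5 genes lower and none higher at the cut-off. Of the 8, 1 went the other way, higher in each mKD library than in any WT library (log2 fold change 0.32). *Cdh5*, which encodes VE-cadherin, had 3054, 3294 and 3372 in WT and 1324, 2006 and 1743 in mKD (log2 fold change -0.96), and that of *Kdr*, a receptor for VEGF, was -1.13. Without mKD libraries 1 and 3, 2 of the 8 were lower. The part of these cell types in the values of the 10 genes was not tested, and in whole tissue a change in cells of a type and a change in RNA per cell cannot be told apart.

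**Figure D3:**
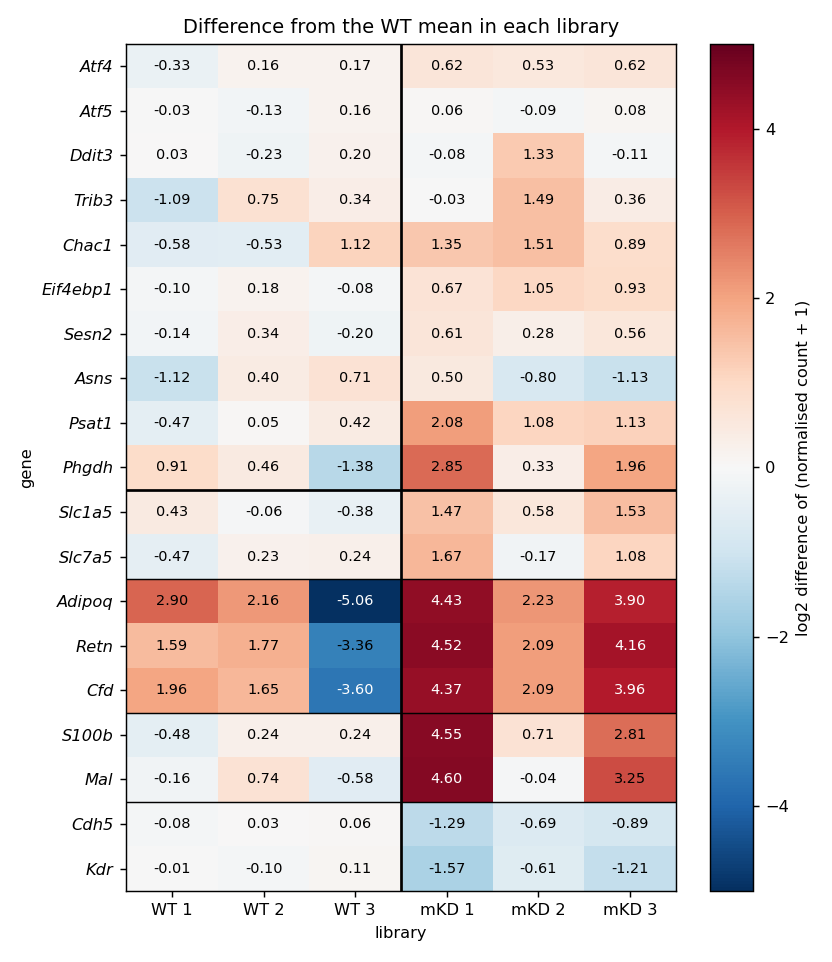
Difference of each library from the WT mean (colour and printed value, log2 of normalised count + 1) for the 10 genes (above the thick line), the amino acid transporter genes *Slc1a5* and *Slc7a5*, and markers of adipocytes (*Adipoq*, *Retn*, *Cfd*), nerve (*S100b*, *Mal*) and endothelium (*Cdh5*, *Kdr*), with libraries in columns. *Phgdh* is at 2.85 and 1.96 in mKD libraries 1 and 3 and at 0.33 in mKD library 2. In the same order of libraries *S100b* is at 4.55, 2.81 and 0.71. The mean of the 11 nerve markers, not drawn, is at -0.37 in mKD library 2. *Atf4* and *Eif4ebp1* are raised in all 3 mKD libraries.

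Compared per kilobase of the longest annotated transcript, the 10 genes fell into 2 tiers. In WT muscle *Atf4* had 1776 ± 331 normalised counts per kilobase (SD, n = 3 mice), *Atf5* 1080 ± 114, *Chac1* 561.5 ± 411, *Eif4ebp1* 423 ± 46.8 and *Ddit3* 294 ± 43.2. The other 5 genes lay between 11.4 for *Psat1* and 20.96 for *Sesn2*. *Chac1* differed from *Eif4ebp1* and *Ddit3*, the next in the order, by less than its own SD, and in the lower tier, in the order *Sesn2*, *Phgdh*, *Trib3*, *Asns* and *Psat1*, no gene differed from the next by more than the larger of their SDs. In mKD muscle *Atf4* had 2640 ± 89.7 per kilobase, *Chac1* 1154 ± 243, *Atf5* 1090 ± 68.9, *Eif4ebp1* 782 ± 103 and *Ddit3* 427 ± 266. Here *Chac1* was ahead of *Atf5* in level, but by less than the spread of either gene. Of the lower tier in mKD muscle *Phgdh* had 62.8 ± 45.7 per kilobase, *Psat1* 32.1 ± 13.7 and *Asns*, the lowest, 8.70 ± 5.87. Of the 4 genes past the cut-off, *Atf4*, *Chac1* and *Eif4ebp1* were thus in the upper tier and *Psat1* in the lower.

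Genes upstream of ATF4 were examined next. Of 14 genes for eIF2 kinases, eIF2, its exchange factor eIF2B and the eIF2 phosphatase subunits, 3 passed the 1.2-fold cut-off upwards and none downwards. Their median log2 fold change was 0.23. For this list and those that follow, the shares over all genes tested were 8.31% higher and 9.51% lower. All 3 genes past the cut-off encode subunits of eIF2B, the guanine nucleotide exchange factor that phosphorylated eIF2 blocks. In log2, *Eif2b1* changed by 0.32 (standard error 0.11), *Eif2b3* by 0.34 (standard error 0.12) and *Eif2b2* by 0.35 (standard error 0.14). In each the mKD libraries were above the WT libraries, which was so for 12.1% of all genes tested. For *Eif2b3* the normalised counts were 393, 428 and 381 in WT and 501, 475 and 546 in mKD. None of the 4 kinase genes passed the cut-off, with log2 fold changes of 0.15 for *Eif2ak1* (HRI), -0.51 for *Eif2ak2* (PKR), 0.30 for *Eif2ak3* (PERK) and 0.51 for *Eif2ak4* (GCN2). *Ppp1r15a*, which encodes GADD34, the stress-induced subunit of the eIF2 phosphatase, had 543, 592 and 906 normalised counts in WT and 871, 907 and 855 in mKD (log2 fold change 0.40, unadjusted p = 0.070, adjusted p = 0.31 from limma). After correction for transcript length, 1 of the 14 genes was higher, against 5.04% of all genes.

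The paralogues of the 10 genes, 6 of 7 tested, all had negative log2 fold changes, with a median of -0.10. Of all genes tested, 51.1% were positive and 9.51% were lower at the cut-off. After correction for transcript length the median of the paralogues was -0.029, and without mKD libraries 1 and 3 it was -0.21. *Sesn3*, a sestrin that FOXO factors induce, passed the cut-off, with normalised counts of 839, 563 and 930 in WT and 491, 568 and 572 in mKD (log2 fold change -0.49, standard error 0.20, unadjusted p = 0.039, adjusted p = 0.25 from limma). WT library 2 lay within the mKD range. *Chac2*, which degrades glutathione more slowly than CHAC1, had -0.21, and *Eif4ebp2*, the more abundant 4E-BP gene by normalised count and by length, had -0.11 (standard error 0.16). *Eif4ebp2* had 8644 ± 1341 normalised counts over 3 WT mice and 8022 ± 1306 over 3 mKD mice (SD).

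Of 13 genes tested for serine, proline and one-carbon metabolism, 1 was higher and none lower at the cut-off, with a median of 0.089. *Pycr1*, which encodes a mitochondrial enzyme of proline synthesis, had 82.4, 49.2 and 83.7 normalised counts in WT and 87.3, 124.3 and 134.2 in mKD (log2 fold change 0.69, standard error 0.29, unadjusted p = 0.045, adjusted p = 0.27 from limma). *Psph*, the last enzyme of serine synthesis, had -0.021 (standard error 0.16). *Mthfd1l*, a mitochondrial enzyme of folate metabolism, had 0.83 (standard error 0.51) and *Gpt2*, a mitochondrial alanine aminotransferase, 0.26 (standard error 0.15). After correction for transcript length, none of the 13 was past the cut-off.

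Among 7 amino acid transporter genes tested, 1 was higher and none lower, with a median of 0.20. *Slc1a5*, which encodes the glutamine transporter ASCT2, had 304, 216 and 173 normalised counts in WT and 626, 337 and 652 in mKD (log2 fold change 1.196, standard error 0.30, unadjusted p = 0.0044, adjusted p = 0.15 from limma). Each mKD library was above each WT library, and mKD libraries 1 and 3, those with high nerve markers and *Adipoq*, were the highest. *Slc7a5*, which encodes the leucine transporter LAT1, had 41.2, 67.2 and 67.9 in WT and 184, 50.8 and 122 in mKD, with the same 2 libraries high (log2 fold change 0.86, standard error 0.47). *Slc1a4*, a transporter of serine and alanine, had 22.2, 15.05 and 30.7 in WT and 7.78, 13.7 and 13.1 in mKD (log2 fold change -0.90, standard error 0.52). Without mKD libraries 1 and 3 no transporter gene was past the cut-off and the median was -0.065.

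Of 9 other ATF4 targets tested, *Herpud1*, a gene of endoplasmic reticulum-associated degradation, was higher and none was lower, with a median of 0.27. Its normalised counts were 2537, 2892 and 2763 in WT and 3624, 3925 and 3421 in mKD (log2 fold change 0.42, standard error 0.11, unadjusted p = 0.0042, adjusted p = 0.15 from limma). *Gadd45a*, a gene of the DNA damage and stress response, had 0.39 (standard error 0.18) and *Sqstm1*, an autophagy receptor, 0.27 (standard error 0.12), and neither passed. The stress hormone gene *Fgf21* was listed at 0 in all 6 libraries, and *Gdf15* was listed at 0 in 5 and at 2.79 in WT library 3. Of 11 bZIP and stress factor genes tested 1 was higher, *Jun* (0.52, standard error 0.22), and none lower. *Atf3* had 0.40 (standard error 0.32) and *Nfe2l2*, the antioxidant factor NRF2, -0.22 (standard error 0.13).

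Of 12 cytosolic aminoacyl-tRNA synthetase genes, which ATF4 is known to induce in part, 2 were higher and none lower at the cut-off, with a median of 0.12. *Yars* had 0.39 (standard error 0.12), *Sars* 0.28 (standard error 0.11) and *Aars* 0.17 (standard error 0.11). Of 14 genes of the unfolded protein response of the endoplasmic reticulum 1 was higher and none lower, with a median of 0.12, namely the disulphide isomerase gene *Pdia6* at 0.32 (standard error 0.10). *Manf*, a secreted stress protein, had 0.39 (standard error 0.18) and *Dnajc3*, an inhibitor of PERK, -0.18 (standard error 0.11). Of 10 genes for mitochondrial chaperones and proteases 3 were higher and none lower, with a median of 0.10. *Clpp*, the matrix protease of the mitochondrial unfolded protein response, had 665, 729 and 774 normalised counts in WT and 1075, 1164 and 981 in mKD (log2 fold change 0.57, standard error 0.12, unadjusted p = 0.0015, adjusted p = 0.12 from limma). The co-chaperonin gene *Hspe1* had 0.32 (standard error 0.11) and the chaperone gene *Trap1* 0.32 (standard error 0.12). Without correction for length, the shares over all genes were 8.31% higher and 9.51% lower. With that correction they were 5.04% and 5.46%. None of the other ATF4 targets or the unfolded protein response genes was then past the cut-off. Of the bZIP and stress factor genes 0 were higher and 1 lower. Of the synthetase genes 3 were higher, and of the mitochondrial chaperone and protease genes 1.

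**Figure D4:**
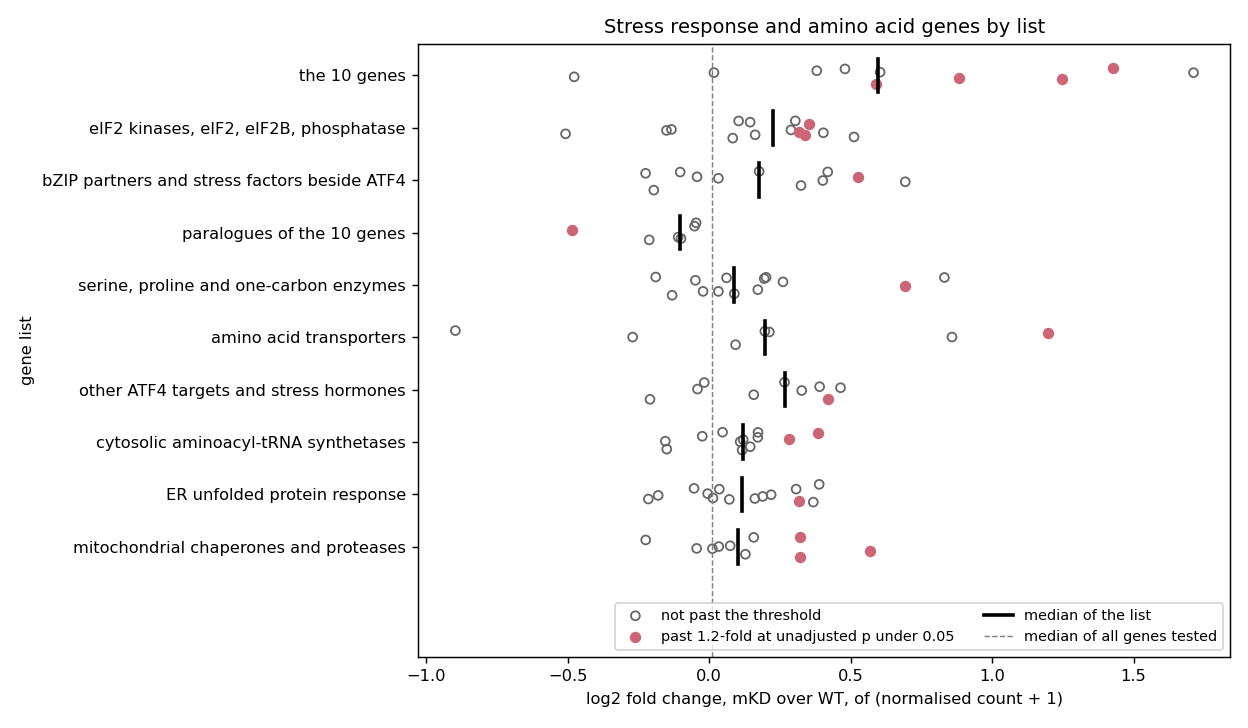
Log2 fold changes, mKD over WT, of single genes (points) in the 10 genes and in 9 lists around them, with filled points past 1.2-fold at an unadjusted p under 0.05 in limma, a black bar at the median of each list and a dashed line at the median of all genes tested. The median of the 10 genes is 0.60, and those of the 9 lists lie between -0.10 and 0.27.

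Transcripts of the 10 genes are between 969 nucleotides (*Ddit3*) and 3475 nucleotides (*Sesn2*) long. As an alternative, the dependence of each library on transcript length was taken out before the fit. Estimates were then 0.44 for *Atf4*, 1.04 for *Chac1*, 0.73 for *Eif4ebp1* and 1.35 for *Psat1*, and these 4 genes stayed past the cut-off, against the same 5.04% of all genes higher. That of *Ddit3* was 0.076, that of *Atf5* -0.16 and the median of the 10 genes 0.47. With 1 library left out in turn, 4 of the 10 genes were past the cut-off each time, all higher, against 4.72% to 9.02% of all genes. *Atf4*, *Eif4ebp1* and *Psat1* were among them in all 6 cases, and the other gene was *Chac1* in 3 cases, *Phgdh* in 2 and *Sesn2* in 1. Without mKD libraries 1 and 3 together, 2 were past it, *Eif4ebp1* and *Ddit3*, against 3.73% of all genes higher.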

How the data were processed

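The deposited table holds a normalised signal per gene and library for which the authors scaled each library's read counts by a single factor. Further columns hold the authors' mean per genotype, fold changes, standard errors, test statistics and p-values, which were not used. The methods name Partek Flow version 9.0.20.0622 and DESeq2, and the submitters' processing notes name GRCm38 (mm10). Aligner and counting tool: not given in the sources used here. Labels number the tissue samples of each genotype 1 to 3, and the study gives 3 biological replicates per genotype. The samples are read here as separate mice, so p-values measure the spread between them. Reads were recovered from the step between values in each library, where 100.0% of values were whole to within 1e-04.

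limma 3.58.1 (R 4.3.3) with a trend was fitted to log2(value + 1) for 12322 genes kept by filterByExpr of edgeR, with a genotype term alone and Benjamini-Hochberg adjusted p-values over these genes. The added 1 draws the fold changes of low genes towards 0. edgeR 4.0.16 and DESeq2 1.42.0 on recovered reads were alternatives, and the tests were tested on simulated data. There limma called 3 of 50 genes changed 1.5-fold and 19 of 50 changed 2-fold at an adjusted p under 0.05. Past 1.2-fold at an unadjusted p under 0.05 were 33 and 40 of them. A gene without an adjusted call can thus still have changed by such an amount. Transcript lengths and coordinates come from GENCODE M21 on GRCm38, matched by gene identifier for 99.4% of the genes, and the trend over length was removed per library with lowess (span 0.3). Named genes are the 10 genes, *Tet3*, and the 3 genes with the smallest p of each other list (2 for lists of cell type markers). *Eif2ak1*, *Eif2ak2*, *Eif2ak3*, *Eif2ak4*, *Ppp1r15a*, *Psph*, *Fgf21*, *Gdf15*, *Adipoq*, *Plin1*, *Cidec*, *Lep*, *Car3* and the genes of the closing observations were named after their values were seen. The 10 genes, the lists and the tests were chosen with earlier results of these data known. Of 8 macrophage and leukocyte markers none was past the cut-off (*Ptprc* at -0.87, *C1qa* at 0.43). Of 12 muscle fibre markers 2 were higher, *Tnnc2* at 0.55 and *Pvalb* at 0.66. A nerve marker is not reported here and was left out of its list.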

Additional observations from a re-analysis of the deposited data

How the results depend on the processing

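At 1.2-fold with an unadjusted p under 0.05, 2196 genes passed, 1294 with the trend over transcript length removed, 1193 without mKD libraries 1 and 3, and 1467 to 2304 with 1 library left out. At an adjusted p under 0.05 limma called 2 genes, DESeq2 535 and edgeR 2, and 4 without mKD libraries 1 and 3. The replicate block and removal of the length trend gave 0 each (1742 and 1335 at an unadjusted p under 0.05), and leaving out 1 library gave 0 to 4. Deviations of same-numbered libraries correlated at 0.055, -0.051 and -0.076, and those of the other pairs at -0.074 to 0.12. The main fit therefore did not use the replicate numbers as pairs. With 3 mice of each genotype, these correlations cannot exclude a pairing. With the replicate block 5 of the 10 genes were past the cut-off, *Phgdh* (unadjusted p = 0.036, limma) in addition to the 4, all higher, against 6.31% of all genes higher. Without mKD libraries 1 and 3 this count was 2, where 1 mKD library is left. Of the 10 genes, 2 turned direction. *Atf5* had -0.16 without the length trend, -0.089 without mKD libraries 1 and 3, and -0.050 to 0.099 with 1 library left out, and *Ddit3* had -0.093 to 0.62 with 1 library left out. The cause was not tested. Under a mean normalised count of at least 50, *Asns* and *Trib3* were not tested. Among estimates for the 10 genes under the alternatives, 147 kept direction and side of the cut-off, 8 lost the call, 7 gained it and 6 reversed. DESeq2 and edgeR took *Phgdh* and not *Chac1* past the cut-off. The lowest read numbers were 6 for *Asns* and 7 for *Trib3*, where counting error is widest relative to the value.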

Other observations

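WT library 3, in which *Chac1* was at 1696 against 521 and 541 in the other WT libraries, was also the highest WT library for several stress genes of the lists, chosen after their values were seen. *Xbp1*, a factor of the unfolded protein response, had 575, 595 and 1593 normalised counts in WT and 1069, 695 and 754 in mKD. *Ddit4*, an inhibitor of mTORC1 that stress and glucocorticoids induce, had 455, 405 and 1436 in WT and 708, 343 and 706 in mKD. *Cebpd*, a partner factor of ATF4, had 120, 111 and 429 in WT and 598, 192 and 213 in mKD. Neither *Xbp1* (0.01), *Ddit4* (-0.21) nor *Cebpd* (0.69) was past the cut-off in log2 fold change between genotypes.

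The recovered reads of low genes were unevenly spread over odd and even numbers. In WT library 2, for example, 275 genes had 3 reads, 59 had 4, 278 had 5 and 73 had 6, while 21 genes had 1 read. Of the genes with 3 to 10 reads, 72.6% to 78.0% had an odd number in the 6 libraries, against 47.7% to 49.9% of those with 100 to 200 reads. The sources used here do not name the counting tool. Among the 10 genes the lowest values came from 6 and 10 reads of *Asns*, 7 of *Trib3* and 11 of *Phgdh*. The Poisson intervals given for *Asns* and *Trib3* take reads as independent, from which this uneven spread departs, so they are approximate.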
